A study of Danio rerio with 48 samples.

Results

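The mitochondrial genome carries a small set of genes for core subunits of the respiratory chain, and 10 of them were followed through early zebrafish (Danio rerio) development in single whole embryos. They were picked by a list of gene IDs and are 10 of the 32520 gene IDs of the count tables. Complex I is represented by mt-nd1 (ENSDARG00000063895), mt-nd2 (ENSDARG00000063899), mt-nd3 (ENSDARG00000063914), mt-nd4 (ENSDARG00000063917) and mt-nd5 (ENSDARG00000063921). Complex III is represented by mt-cyb (ENSDARG00000063924). Complex IV is represented by mt-co1 (ENSDARG00000063905), mt-co2 (ENSDARG00000063908) and mt-co3 (ENSDARG00000063912), and complex V by mt-atp6 (ENSDARG00000063911). Each had counts in all 48 embryos. The embryos were wild-type laboratory fish of the strain TL or the strain AB, spawned naturally and kept at 28.5 °C until 1 of 4 stages. These stages lay 1 h apart, the first at 2.25 and the last at 5.25 hours post fertilisation (hpf), and each strain had 6 embryos per stage. The labels name no further treatment or allele. They place embryos 1 to 3 of a group in biological replicate 1 and embryos 4 to 6 in biological replicate 2, and they give neither the number of clutches nor the mothers.

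Oxidative phosphorylation moves electrons from NADH through complex I, ubiquinone, complex III, cytochrome c and complex IV to oxygen, and complex V uses the resulting proton gradient to make ATP. In vertebrates the mitochondrial genome is transcribed into long precursor RNAs from both strands. These are cut into messengers, mostly at the transfer RNAs that lie between the protein genes, and given short poly(A) tails. Most subunits of the same complexes are encoded in the nucleus, so the complexes need products of both genomes. An embryo receives its mitochondria from the egg, and the stages studied span the cleavage of the egg into many cells and the start of transcription from its own nuclear genes.

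The RNA was measured by CEL-seq2, which captures poly(A) RNA, barcodes each embryo, pools embryos and counts reads near the 3′ end of each transcript. Without the ID ENSDARG00000080337, which took 11.3% to 60.5% of an embryo's counts and was left out of the totals, embryos had 3282435 to 12797100 counts (median 6488588). The left-out ID's median share was lower in TL than in AB at each stage, with 23.8% in TL against 36.7% in AB at 2.25 hpf and 28.4% in TL against 45.3% in AB at 5.25 hpf. Its part in the strain differences was not tested beyond a fit that kept it in the totals, in which each strain comparison had the same number of members called. The 7 early-embryo markers in the tables, such as the pluripotency factor gene nanog and the cyclin gene ccnb1, summed to 3301 to 6327 CPM (counts scaled to a common library size), whereas 7 markers of differentiated tissues summed to 0 to 6.87 CPM with 6 of them at a median of 0. The labels give every stage a separate library index, and a stage difference and a pool difference cannot be told apart. Because the embryos of a biological replicate may share a clutch, p-values over embryos measure the spread between these embryos.

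In the gene order of the zebrafish mitochondrial genome in RefSeq, a transfer RNA gene follows each of mt-nd1, mt-nd2, mt-co1, mt-co2, mt-co3, mt-nd3, mt-nd4 and mt-cyb. By contrast, mt-atp8 stands directly before mt-atp6, mt-atp6 before mt-co3, mt-nd4l before mt-nd4, and mt-nd5 beside mt-nd6. The use of strand in counting is not given in the sources used here. The split of counts between mt-nd5 and mt-nd6, which vertebrates encode on opposite strands, is therefore uncertain. The split of counts between the directly adjacent genes is likewise uncertain, and reads shared with nuclear copies of mitochondrial sequence were not tested for.

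Together the 10 genes took 1.91% to 5.77% of an embryo's counts without ENSDARG00000080337 (median 3.20%). By stage from 2.25 to 5.25 hpf, their median share in TL embryos was 3.003%, 3.42%, 3.53% and 3.55%. In AB embryos the corresponding medians were 2.92%, 2.96%, 3.53% and 3.19%. The ranges of the strains overlapped at each stage. In whole embryos, fewer mitochondria and less RNA per mitochondrion cannot be told apart.

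Within that pool, mt-nd4 took the largest share of counts, with 18.3% to 32.2% per embryo (median 25.6%). The shares of mt-co2 (median 15.0%), mt-atp6 (14.8%) and mt-co1 (14.8%) followed. For mt-nd2 the median was 8.68%, for mt-cyb 8.55%, for mt-co3 5.36% and for mt-nd1 3.79%. The smallest shares were those of mt-nd5 (1.77%) and mt-nd3 (1.11%). These are shares of 3′ counts of captured poly(A) RNA, and the split of counts between adjacent genes is uncertain, so they do not rank the transcripts by abundance.

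Each member varied more between embryos of 1 strain and stage than the median of other deeply counted genes. The standard deviation (SD) of log2 CPM within groups was 0.35 for mt-co1, the lowest, and 0.60 for mt-nd5, the highest, against a median of 0.28 over 1644 other genes whose mean count reached 1000. The summed level of the 10 had an SD of 0.38. The SD of each member's log2 share of the pool was smaller, at 0.16 for mt-nd4 to 0.34 for mt-nd5. Each member is part of its own pool, which can itself lower this SD, so how much of the spread was common to the members was not measured. Across the 48 embryos, each member's log2 CPM correlated with the mean of the other 9 with a Pearson r of 0.64 (mt-atp6) to 0.91 (mt-nd3). These correlations describe libraries that share a normalization, and the groups differ in stage and strain.

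**Figure D1:**
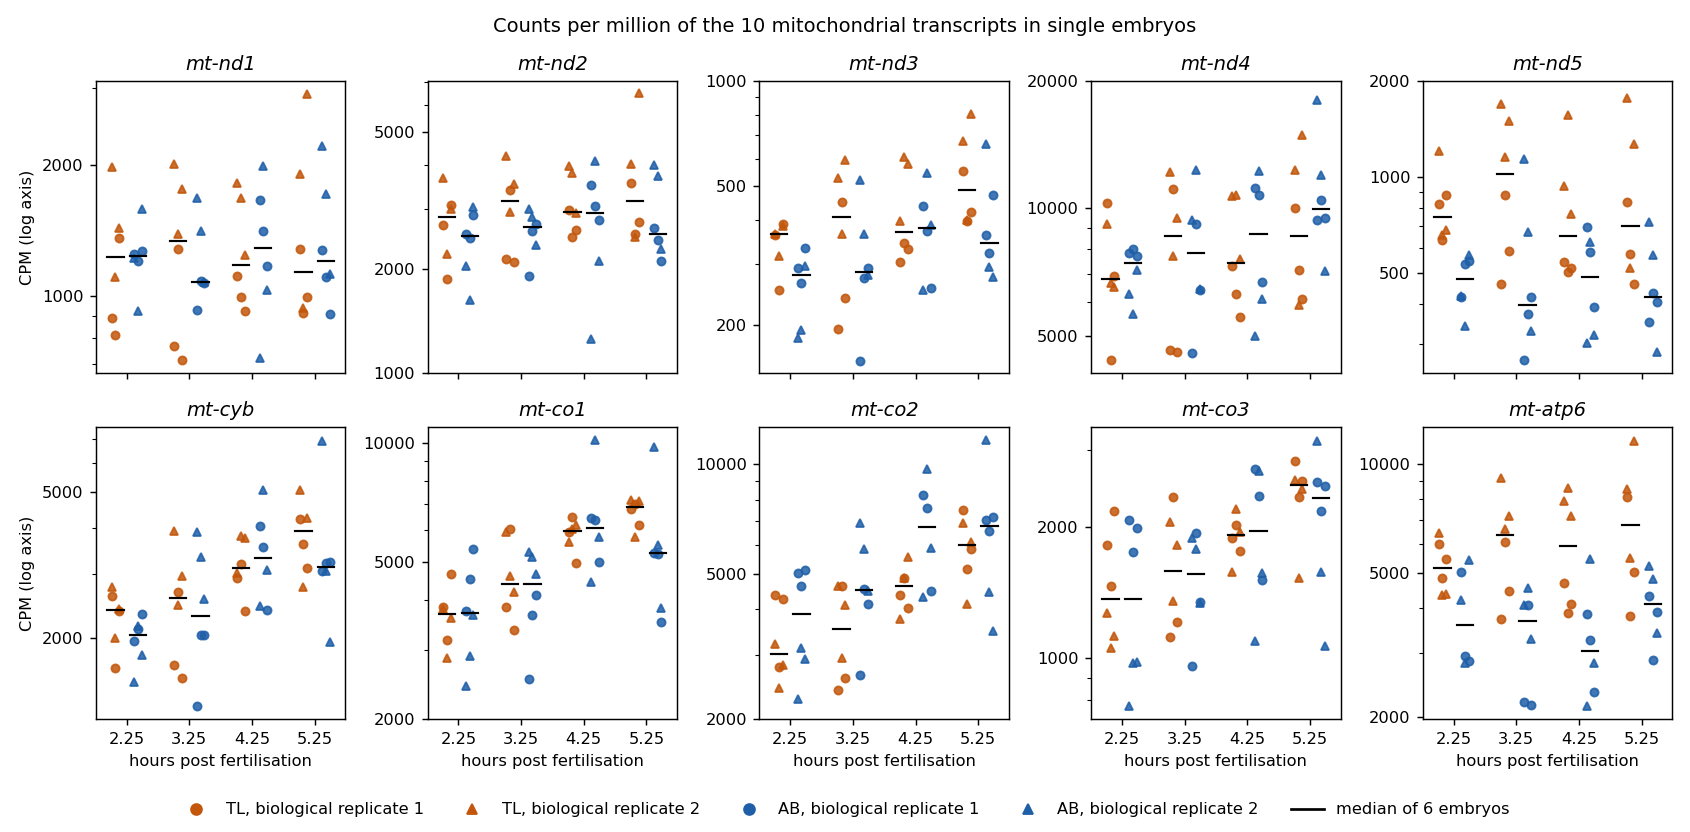
Level of each member in single embryos, in CPM on a log axis, against stage in hpf. Orange marks are TL embryos and blue marks AB embryos, circles are biological replicate 1 and triangles biological replicate 2, and bars are medians of 6 embryos. The TL embryos of mt-atp6 and mt-nd5 lie mostly above the AB embryos, and the medians of mt-co1, mt-co2 and mt-cyb are higher at 5.25 than at 2.25 hpf in each strain.

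The comparison of TL with AB asked how the strains differed at each stage. The calls fell on 2 members, both higher in TL: mt-nd5 of complex I at 2.25 hpf and mt-atp6 of complex V at the 3 later stages. The remaining 8 members were not called at any single stage in the fits reported first. Alternative fits called mt-co2 at 4.25 hpf (4 of 12 fits) and mt-co1 at 5.25 hpf (1 of 12). They also called mt-nd1 and mt-nd4 at 4.25 hpf (1 of 12 each) and mt-nd3 at 2.25 hpf (1 of 11). The fit that called mt-co1 left out an AB embryo picked for its high mt-co1 level. With edgeR's quasi-likelihood test adjusted over all genes tested, and no replicate term in the fit, a single member was called at each stage. This was 1 of 10 at 2.25 hpf, where 18% of all genes tested were called, 1 of 10 at 3.25 hpf (15.7% of all genes), 1 of 10 at 4.25 hpf (20.3%) and 1 of 10 at 5.25 hpf (10.7%). The members' share in these fits was thus near or below that of all genes. With biological replicate as a block, which follows the pairing of the replicates, more members were called at each stage from 3.25 hpf on. All 10 members entered each fit. Their median log2 fold change, TL over AB, was 0.10, 0.11, -0.05 and 0.21 by stage, beside 0.01, -0.00, 0.01 and -0.02 over all genes.

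The subunit encoded by mt-atp6 forms part of the proton channel of ATP synthase. At 2.25 hpf its lowest, median and highest levels were 4353, 5165 and 6463 CPM in TL, against 2819, 3585 and 5447 CPM in AB. At 3.25 hpf they were 3728, 6370 and 9173 CPM in TL, against 2158, 3675 and 4541 CPM in AB. The upper embryos of TL, 3 of 6 at 2.25 hpf and 4 of 6 at 3.25 hpf, stood above every AB embryo, while the lower ones overlapped with AB.

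The strains also overlapped at the later stages. At 4.25 hpf mt-atp6 ranged from 3874 to 8593 CPM with a median of 5950 CPM in TL, against 2148 to 5476 CPM with a median of 3043 CPM in AB. At 5.25 hpf the range was 3798 to 11609 CPM with a median of 6805 CPM in TL, against 2877 to 5239 CPM with a median of 4119 CPM in AB. Again 3 of 6 and then 4 of 6 TL embryos exceeded every AB embryo. The log2 fold change of mt-atp6, TL over AB, was 0.42 (standard error, SE, 0.18) at 2.25 hpf, which did not pass (edgeR adjusted p 0.128). It passed at 3.25 hpf with 0.85 (SE 0.23, adjusted p 0.0209), at 4.25 hpf with 0.87 (SE 0.24, adjusted p 0.0182) and at 5.25 hpf with 0.80 (SE 0.24, adjusted p 0.0426).

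At 4.25 hpf the mt-atp6 level was higher in TL in both biological replicates, with the larger difference in replicate 2. There the 3 TL embryos of replicate 2 had 7205, 7914 and 8593 CPM, and those of replicate 1 had 3874, 4115 and 4695 CPM. The AB embryos had 2148, 2815 and 5476 CPM in replicate 2 and 2346, 3270 and 3844 CPM in replicate 1. Within each replicate the 3 TL embryos therefore stood above the 3 AB embryos. Those of replicate 2 stood above the AB embryos of both replicates, and those of replicate 1 overlapped with the AB embryos of replicate 2. Without replicate 2 the mt-atp6 call was lost at 3.25 hpf (log2 fold change 0.73, edgeR adjusted p 0.156), at 4.25 hpf (0.41, 0.0858) and at 5.25 hpf (0.61, 0.266). Without replicate 1 it was lost at 5.25 hpf (0.95, 0.0861). With counts summed over the 3 embryos of a replicate, which leaves 2 values per strain, mt-atp6 was not called at any of these stages (log2 fold changes 0.93, 0.90 and 0.78, adjusted p 0.089, 0.171 and 0.253).

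A subunit of the membrane arm of complex I is encoded by mt-nd5. At 2.25 hpf its lowest, median and highest levels were 635, 751 and 1205 CPM in TL, against 340, 477 and 568 CPM in AB. All 6 TL embryos stood above all 6 AB embryos, a separation that 9.31% of all genes tested showed at this stage. Its log2 fold change was 0.77 (SE 0.17, edgeR adjusted p 0.00526). Without replicate 2 it was 0.63 (adjusted p 0.0743), in a fit of all 48 embryos 0.79 (adjusted p 0.101), and with counts summed over replicates 0.72 (adjusted p 0.0553), none of which passed.

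At the later stages mt-nd5 overlapped between strains, with 3 of 6 TL embryos above every AB embryo each time. Its range and median were 461 to 1692 and 1019 CPM in TL, against 267 to 1141 and 395 CPM in AB, at 3.25 hpf. At 4.25 hpf they were 503 to 1565 and 652 CPM in TL, against 301 to 697 and 486 CPM in AB. At 5.25 hpf they were 462 to 1769 and 704 CPM in TL, against 282 to 723 and 419 CPM in AB.

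The medians of mt-nd5 were thus higher in TL at each later stage, but the test was not passed. The log2 fold changes were 0.95 (SE 0.37, edgeR adjusted p 0.0931), 0.73 (SE 0.28, adjusted p 0.0836) and 0.98 (SE 0.32, adjusted p 0.0618). With biological replicate as a block, which the pairing of the replicates allows, mt-nd5 was called at 3.25 hpf (0.92, adjusted p 0.0173) and 5.25 hpf (0.92, adjusted p 0.033), so that 2 of 10 members were called at each of these stages. Over all genes, alternative fits called 847 to 2412 at 3.25 hpf (1869 in the fit reported) and 69 to 2626 at 5.25 hpf (1270). The number of all genes called in the fits with the block is not given here for these stages. The 2 members therefore show no excess or lack of calls. At 4.25 hpf the difference of mt-nd5 rested on replicate 2, with 763, 937 and 1565 CPM in TL and 301, 320 and 627 CPM in AB. In replicate 1 the TL embryos had 503, 518 and 542 CPM and the AB embryos 391, 580 and 697 CPM. Without replicate 2 the log2 fold change of mt-nd5 at 4.25 hpf was -0.11 (adjusted p 0.703), and without replicate 1 it was 1.39 (adjusted p 0.0278).

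**Figure D2:**
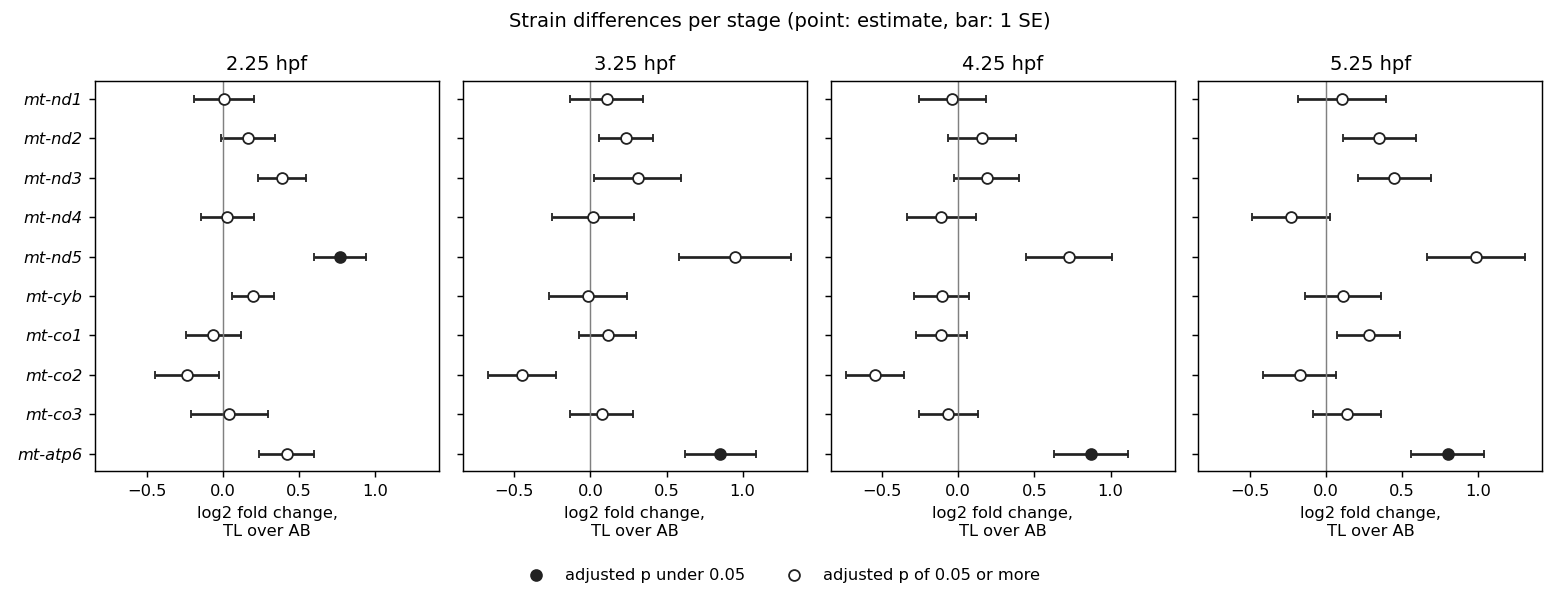
Log2 fold change of each member, TL over AB, at each stage. Points are edgeR estimates, bars 1 SE, and filled points have an adjusted p under 0.05. The points of mt-nd5 and mt-atp6 lie furthest to the right in each panel and those of mt-co2 lie left of 0, though its sign turned in an alternative at 2.25 and 5.25 hpf.

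Among the other members, mt-co2, which encodes the subunit of cytochrome c oxidase that takes up electrons from cytochrome c, had a negative estimate, TL over AB, at 4.25 hpf. There its lowest, median and highest levels were 3756, 4625 and 5590 CPM in TL, against 4342, 6732 and 9709 CPM in AB. The groups overlapped, with 2 of 6 TL embryos below every AB embryo. Its log2 fold change was -0.55 (SE 0.19) and just missed the threshold (edgeR adjusted p 0.0511), which it passed with replicate as a block (-0.55, adjusted p 0.0453), the second of 2 members called in that fit. Over all genes the fit with the block called 2881, beside 2446 in the fit reported.

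Other complex I members gave no call at a single stage in the fits of both biological replicates. At 4.25 hpf, however, mt-nd1 (log2 fold change -0.50, edgeR adjusted p 0.0204) and mt-nd4 (-0.60, adjusted p 0.0257) were called lower in TL when replicate 2 was left out, and with mt-co2 these made 3 of 10 members called there. Over all genes, alternative fits at this stage called 482 to 2881, and the number in the fit without replicate 2 is not given here. The 3 members therefore show no excess or lack of calls. In other alternatives the estimates of mt-nd1 and mt-nd4 reached 0.34 and 0.32, so the direction was not stable. The small membrane subunit gene mt-nd3 had 252, 365 and 391 CPM as lowest, median and highest in TL at 2.25 hpf, against 184, 278 and 334 CPM in AB. Of the 6 TL embryos, 4 exceeded every AB embryo. The log2 fold change was 0.39 (SE 0.16, edgeR adjusted p 0.101), and without replicate 1 it was 0.64 and was called (adjusted p 0.0477). For mt-nd1, mt-nd2, mt-nd4, mt-cyb, mt-co1 and mt-co3 no strain difference reached an unadjusted p of 0.05 at any stage with all embryos in the fit, and their ranges overlapped between the strains at every stage.

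To use all stages at once, the mean of the 4 stage contrasts was also tested in the fit of all 48 embryos, an addition made after the data had been seen. In this test 4 of 10 members were called, beside 47.2% of all genes. Higher in TL were mt-nd5 (log2 fold change 0.87, SE 0.17, edgeR adjusted p 2.77e-05), mt-atp6 (0.74, SE 0.12, adjusted p 2.65e-06) and mt-nd3 (0.34, SE 0.13, adjusted p 0.0226). Lower in TL was mt-co2 (-0.34, SE 0.12, adjusted p 0.0147). The calls of mt-nd5 and mt-atp6 held in all 10 alternative fits. That of mt-nd3 was lost without replicate 2 (0.15, adjusted p 0.416) and that of mt-co2 without replicate 1 (-0.31, adjusted p 0.164), and with counts summed over replicates neither was called (adjusted p 0.0578 for mt-nd3 and 0.0764 for mt-co2).

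The change of the strain difference itself between 2.25 and 5.25 hpf was tested as an interaction. None of the 10 members was called, and none had an unadjusted p under 0.05, with edgeR. DESeq2 also called none. Over all genes 0.354% were called. The members' interaction estimates ran from -0.28 to 0.36 on the log2 scale.

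Each member's share of the pooled counts of the 10 genes does not depend on the library total, so it shows the strain difference on a second scale. For mt-atp6 the share at 3.25 hpf was 15.7% to 21.03% (median 19.6%) in TL, against 8.74% to 13.7% (median 12.03%) in AB. At 4.25 hpf it was 12.5% to 19.96% (median 17.1%) in TL, against 8.33% to 10.4% (median 9.33%) in AB. The strains did not overlap at these stages, while they overlapped at 2.25 and 5.25 hpf.

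The share of mt-co2 was the mirror of this. It was 9.33% to 12.1% (median 11.3%) in TL, against 15.1% to 18.3% (median 16.1%) in AB, at 3.25 hpf. At 4.25 hpf it was 9.47% to 15.7% (median 14.2%) in TL, against 16.7% to 20.3% (median 19.3%) in AB. All TL embryos thus fell below all AB embryos at both stages. Of the 40 combinations of member and stage, 6 had strains that did not overlap in share. The other 2 were mt-nd5 at 2.25 hpf, with 2.44% to 3.55% in TL and 1.38% to 2.07% in AB, and mt-nd4 at 5.25 hpf, with 18.3% to 25.7% in TL and 25.9% to 31.8% in AB. Shares of a fixed sum are tied to each other, and no test was made on them. They are defined for the 10 members only, so no share over all genes stands beside this count. In CPM the strains were without overlap for mt-nd5 at 2.25 hpf, 1 of 10 members beside 9.31% of all genes at that stage. At the later stages every member overlapped in CPM. The share of all genes that separated at those stages is not given here, so this shows no lack of separation among the members.

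The ratio of mt-atp6 to mt-co2 counts sets these members against each other. It pairs members already seen to have strain estimates of opposite sign, and it uses the same counts as the shares. It is therefore a description, not separate evidence, and no test was made on it. By stage from 2.25 to 5.25 hpf, its median was 1.65, 1.74, 1.18 and 1.16 in TL. In AB the medians were 0.948, 0.750, 0.486 and 0.580. At 3.25 hpf the range was 1.32 to 2.25 in TL and 0.521 to 0.897 in AB, and at 4.25 hpf it was 0.796 to 2.11 in TL and 0.432 to 0.564 in AB, without overlap. At 2.25 and 5.25 hpf the ranges overlapped.

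**Figure D3:**
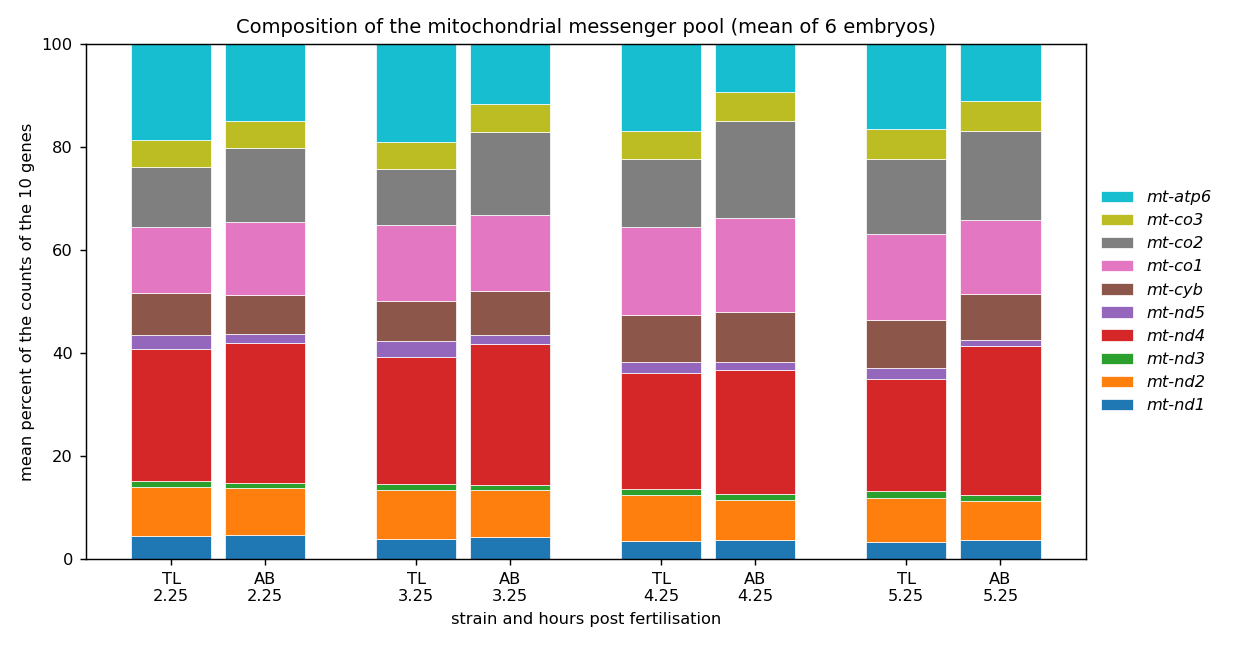
Mean share of each member in the summed counts of the 10 genes, in percent, for TL and AB at each stage in hpf (6 embryos per bar). The top segment, mt-atp6, is larger in TL at each stage, with medians of 18.1% in TL and 15.1% in AB at 2.25 hpf, and the grey segment, mt-co2, is larger in AB.

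Over the 3 h from 2.25 to 5.25 hpf, the 3 transcripts of complex IV, mt-cyb and a pair of complex I transcripts rose in CPM, and no member was called lower. Levels in CPM are relative to the other RNA counted. A change in amount per embryo and a change in that other RNA therefore cannot be told apart. In a fit of all 48 embryos averaged over the strains, 6 of 10 members were called higher at 5.25 hpf, where 26.2% of all genes were called higher and 52.1% in either direction. The members' median log2 fold change was 0.56, beside -0.01 over all genes. None passed an absolute log2 fold change of 1, which 3367 of the 7518 called genes did.

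The catalytic core subunit of cytochrome c oxidase is encoded by mt-co1. Its lowest, median and highest levels were 3528, 5997 and 9749 CPM at 5.25 hpf, against 2425, 3707 and 5380 CPM at 2.25 hpf. For mt-co2 they were 3486, 6350 and 11654 CPM at 5.25 hpf, against 2279, 3174 and 5144 CPM at 2.25 hpf. The stages overlapped, with 8 of 12 later embryos above every earlier one for mt-co1 and 9 of 12 for mt-co2. The log2 fold change, 5.25 over 2.25 hpf, was 0.71 (SE 0.14, edgeR adjusted p 2.76e-05) for mt-co1 and 0.82 (SE 0.17, adjusted p 4.65e-05) for mt-co2. The third core subunit of the complex, that of mt-co3, gave 0.64 (SE 0.17, adjusted p 0.00142), with a median of 2459 CPM at 5.25 hpf and 1363 CPM at 2.25 hpf.

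Cytochrome b, the product of mt-cyb, is the haem protein of complex III at which ubiquinol is oxidised. The levels of mt-cyb were 1951 to 6911 CPM (median 3215) at 5.25 hpf, against 1525 to 2762 CPM (median 2137) at 2.25 hpf. Of 12 later embryos 10 stood above every earlier one. Its log2 fold change was 0.79 (SE 0.16, edgeR adjusted p 5.39e-05).

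In complex I 2 of 5 members were called. These were mt-nd3, with a median of 412 CPM at 5.25 hpf and 306 CPM at 2.25 hpf (log2 fold change 0.63, SE 0.18, edgeR adjusted p 0.00251), and mt-nd4, which encodes a membrane subunit of the proton-pumping arm, with medians of 9764 CPM at 5.25 hpf and 7044 CPM at 2.25 hpf (0.50, SE 0.18, adjusted p 0.0199). The median of mt-nd2, another membrane subunit gene, was 2693 CPM at 5.25 hpf and 2614 CPM at 2.25 hpf (0.32, SE 0.16, adjusted p 0.0864). The medians of mt-nd1, which encodes a subunit at the quinone site, were 1200 CPM at 5.25 hpf and 1238 CPM at 2.25 hpf. Its estimate was positive (0.20, SE 0.19, adjusted p 0.396). Those of mt-nd5 were 544 CPM at 5.25 hpf and 602 CPM at 2.25 hpf (0.06, SE 0.23, adjusted p 0.854). In complex V, mt-atp6 had medians of 4918 CPM at 5.25 hpf and 4617 CPM at 2.25 hpf (0.25, SE 0.18, adjusted p 0.232). None of these passed the test, and the 2 stages overlapped for each.

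Steps of 1 h gave fewer calls. None of 10 members was called from 2.25 to 3.25 hpf (1.85% of all genes called), 1 of 10 from 3.25 to 4.25 hpf (16.6%), and none of 10 from 4.25 to 5.25 hpf (42.7%). No member had an unadjusted p under 0.05 in the first or the last step with edgeR, and DESeq2 called none in either. The call was mt-co1, with a log2 fold change of 0.46 (SE 0.14, edgeR adjusted p 0.016). It was lost without replicate 1 (0.34, adjusted p 0.332), in either strain alone (0.36, adjusted p 0.0913 in TL and 0.59, adjusted p 0.173 in AB) and with counts summed over replicates (0.48, adjusted p 0.116). Without replicate 2, 3 members were called, with mt-cyb at 0.70 (adjusted p 0.0036) and mt-co2 at 0.65 (adjusted p 0.0144) beside mt-co1. Over all genes, alternative fits of this step called 705 to 2708 (2392 in the fit reported), and the number without replicate 2 is not given here.

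In the strains alone, 5 of 10 members were called over the 3 h in TL, beside 43.9% of all genes, and 4 of 10 in AB, beside 41.6%. The genes mt-co2, mt-cyb and mt-nd3 were called in both. In TL mt-co1 rose by 0.91 (SE 0.13, edgeR adjusted p 2.14e-06) and in AB it gave 0.57 (SE 0.24, adjusted p 0.0564), and the interaction above did not call this difference. In AB mt-nd4 rose by 0.66 (SE 0.24, adjusted p 0.0269), and in TL it gave 0.40 (SE 0.26, adjusted p 0.218). Over all genes, alternative fits of the span called 5198 to 8727 (7518 in the fit reported), and the number without replicate 2 is not given here. Without replicate 2, 3 of 10 members were called over the 3 h in the fit of both strains, those of mt-co1 (0.40, adjusted p 0.0343), mt-co2 (0.59, 0.00724) and mt-cyb (0.64, 0.00154). Lost in that fit were mt-co3 (0.40, 0.0669), mt-nd3 (0.41, 0.0788) and mt-nd4 (0.21, 0.466). The call of mt-nd4 was also lost with library totals in place of TMM (0.31, adjusted p 0.126) and without AB embryo 4 of 5.25 hpf (0.40, adjusted p 0.0613).

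**Figure D4:**
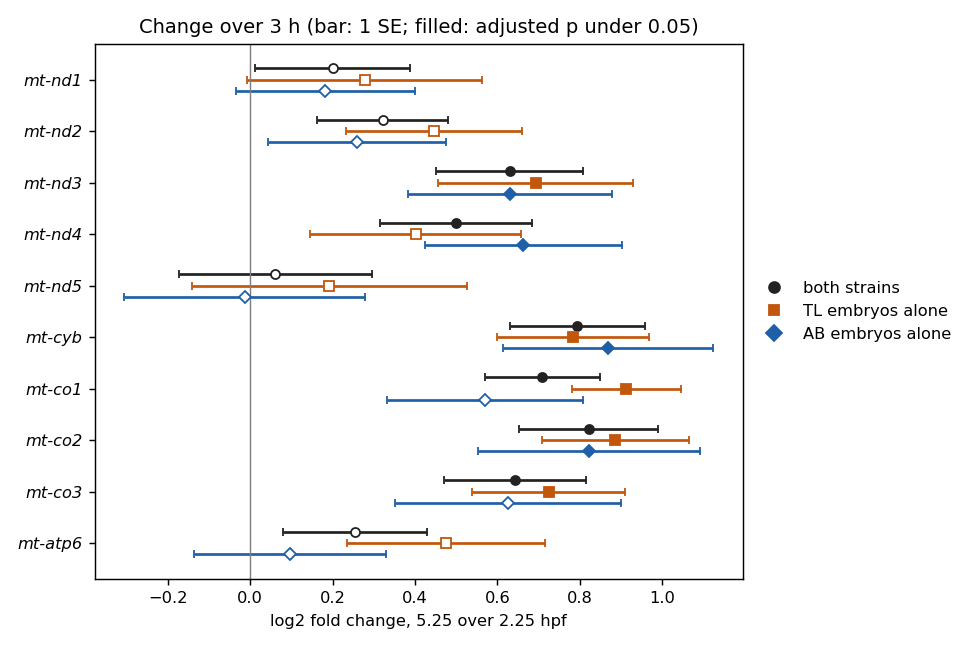
Log2 fold change of each member, 5.25 over 2.25 hpf, in the fit of both strains (black), in TL alone (orange) and in AB alone (blue). Points are edgeR estimates, bars 1 SE, and filled points have an adjusted p under 0.05. Estimates for mt-co1, mt-co2, mt-co3, mt-cyb and mt-nd3 lie to the right of 0.5 in each fit, as does that of mt-nd4 in AB alone (0.66). Those of mt-nd5 lie nearest 0 in each fit, and those of mt-nd1 lie at 0.18 to 0.28.

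In the pool of the 10 genes, complex IV transcripts took a median of 38.7% at 5.25 hpf and 31.8% at 2.25 hpf over the embryos of both strains. Those of complex I took 40.2% at 5.25 hpf and 44.2% at 2.25 hpf. For complex V the medians were 13.3% at 5.25 hpf and 17.6% at 2.25 hpf, and for complex III 9.21% at 5.25 hpf and 7.61% at 2.25 hpf. Within each complex the ranges of the 2 stages overlapped. The strains contributed unequally to these medians. For complex V they were 17.3% at 5.25 hpf and 18.1% at 2.25 hpf in TL, against 11.8% at 5.25 hpf and 15.1% at 2.25 hpf in AB. For complex I they were 35.05% at 5.25 hpf and 45.1% at 2.25 hpf in TL, against 41.8% at 5.25 hpf and 42.9% at 2.25 hpf in AB. Complex IV had 37.9% at 5.25 hpf and 29.2% at 2.25 hpf in TL, against 39.2% at 5.25 hpf and 34.9% at 2.25 hpf in AB.

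Biological replicates were compared at each stage with strain in the model, since the labels tie them to separate sequencing runs. In replicate 2, mt-co2 and mt-co3 of complex IV were lower at 2.25 hpf, mt-nd5 and mt-cyb were higher at 3.25 hpf, and mt-nd1 was higher at 5.25 hpf. At 2.25 hpf 2 of 10 members were called, beside 8.34% of all genes. The 6 replicate 2 embryos had mt-co3 levels of 776 to 1266 CPM, against 1460 to 2174 CPM in replicate 1, and so did not overlap (log2 fold change -0.87, SE 0.12, edgeR adjusted p 0.00213). The share of all genes that separated in this way between the replicates is not given here. In mt-co2 the range was 2279 to 3208 CPM in replicate 2, against 2780 to 5144 CPM in replicate 1 (-0.63, SE 0.14, adjusted p 0.0149), with overlap. In TL embryos alone neither passed (adjusted p 0.21 for mt-co3 and 0.436 for mt-co2).

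At 3.25 hpf all 10 members had a positive estimate and 2 of 10 were called, beside 1.15% of all genes. Those were mt-nd5 (log2 fold change 1.12, SE 0.25, edgeR adjusted p 0.043) and mt-cyb (0.77, SE 0.17, adjusted p 0.044). Of the 10 members 9 had an unadjusted p under 0.05. The share of all genes at that threshold is not given here. The members also varied together across embryos, so these p-values are not independent of each other. The TL embryos had mt-nd5 levels of 1157, 1502 and 1692 CPM in replicate 2 and 461, 585 and 880 CPM in replicate 1, and the AB embryos had 328, 674 and 1141 CPM in replicate 2 and 267, 372 and 419 CPM in replicate 1. Replicate 2 stood wholly above replicate 1 in TL and overlapped with it in AB. In AB alone no member was called, and with library totals in place of TMM neither mt-nd5 (adjusted p 0.0502) nor mt-cyb (0.0503) passed.

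At 4.25 hpf none of 10 was called with edgeR, 1 of 10 at an unadjusted p under 0.05, and none with DESeq2, beside 6.57% of all genes. At 5.25 hpf 1 of 10 was called, beside 13.3% of all genes. This was mt-nd1, with TL levels of 940, 1909 and 2900 CPM in replicate 2 and 913, 994 and 1281 CPM in replicate 1. In AB it had 1124, 1713 and 2213 CPM in replicate 2 and 909, 1106 and 1277 CPM in replicate 1. The log2 fold change was 0.75 (SE 0.23, edgeR adjusted p 0.0381), and neither strain alone gave a call (adjusted p 0.201 in TL and 0.26 in AB).

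**Figure D5:**
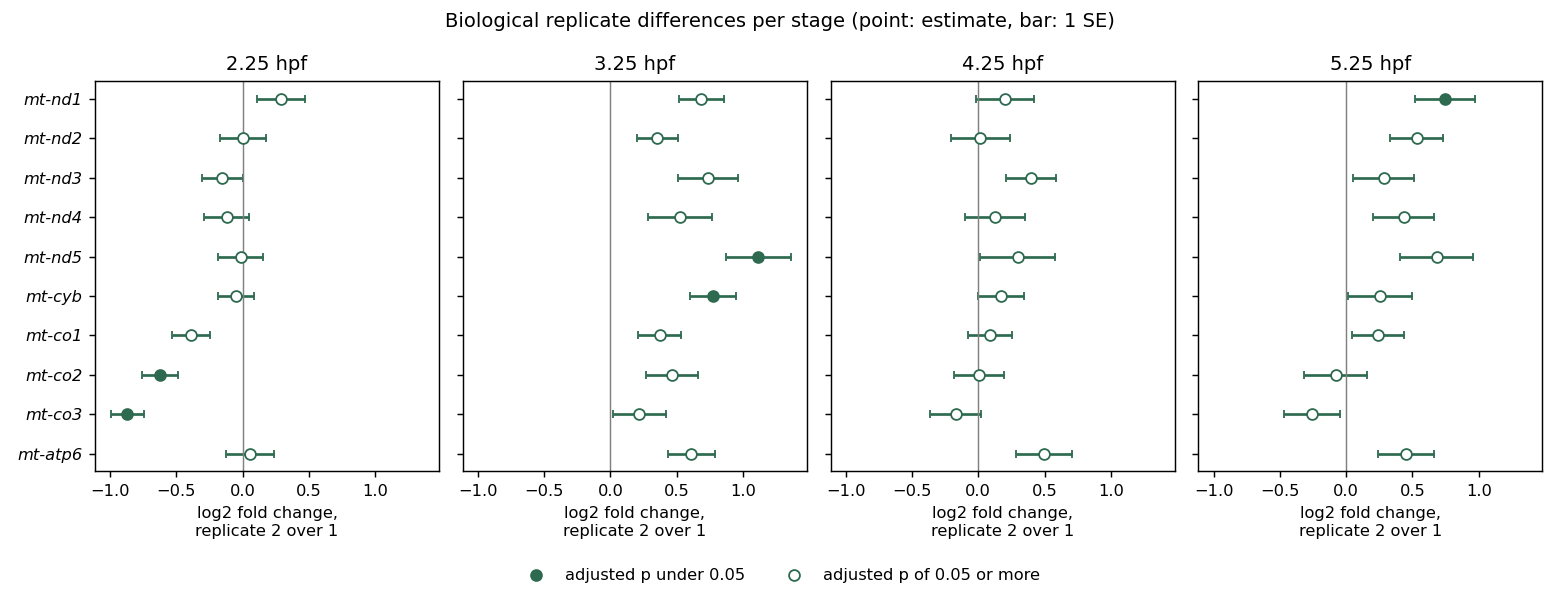
Log2 fold change of each member, biological replicate 2 over replicate 1, at each stage. Points are edgeR estimates with strain in the model, bars 1 SE, and filled points have an adjusted p under 0.05. At 3.25 hpf all 10 points lie to the right of 0, and at 2.25 hpf mt-co2 and mt-co3 lie to the left.

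The tables held the other 3 protein genes of the mitochondrial genome as well. The ATP synthase subunit gene mt-atp8, next to mt-atp6, had only 54 to 861 counts per embryo. At 4.25 hpf its levels were 27.5 to 69.5 CPM (median 44.5) in TL, against 9.63 to 33.2 CPM (median 24.5) in AB, and it was called (log2 fold change 0.95, SE 0.29, edgeR adjusted p 0.0307). The complex I gene mt-nd4l, before mt-nd4, was called at 2.25 hpf (0.69, SE 0.23, adjusted p 0.045) and 4.25 hpf (0.89, SE 0.30, adjusted p 0.0455), with medians of 142 CPM in TL against 91.8 CPM in AB and of 135 CPM in TL against 74.0 CPM in AB. By contrast mt-nd6, beside mt-nd5 and the single protein gene of the other strand in vertebrates, had medians of 1665 CPM in TL and 1764 CPM in AB at 2.25 hpf and was not called at any stage. Averaged over the stages, mt-nd4l (0.89, adjusted p 9.42e-05) and mt-atp8 (0.66, adjusted p 0.000797) were higher in TL, and mt-nd6 gave 0.05 (adjusted p 0.794). At 4.25 hpf mt-atp8 and mt-nd4l separated by strain in replicate 2 only. In replicate 1 mt-atp8 had 27.5 to 39.9 CPM in TL and 18.7 to 33.2 CPM in AB. There mt-nd4l had 94.3 to 107 CPM in TL and 73.1 to 136 CPM in AB. Both were also called higher in replicate 2 than in replicate 1 at 3.25 hpf (edgeR adjusted p 0.0431 and 0.043), beside 1.15% of all genes.

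Nuclear genes of the same complexes, matched by their symbols, made a list of 94 IDs, of which 78 to 80 were tested in each fit. The numbers called higher and lower in TL were 7 and 3 at 2.25 hpf, 11 and 0 at 3.25 hpf, 25 and 3 at 4.25 hpf, and 14 and 0 at 5.25 hpf. In either direction these were 12.8%, 13.9%, 35.9% and 17.9% of the list by stage, beside 18%, 15.7%, 20.3% and 10.7% of all genes, so the list's share lay below that of all genes at the first 2 stages and above it at 4.25 and 5.25 hpf. Of all genes 8.2%, 7.18%, 10% and 5.12% were called higher in TL and 9.83%, 8.53%, 10.3% and 5.62% lower. The list's median log2 fold change was 0.15, 0.31, 0.34 and 0.39. Medians over all genes lay between -0.02 and 0.01. The membrane-domain subunit gene of ATP synthase atp5mf had 99.7 to 189 CPM (median 135) in TL at 4.25 hpf, against 45.0 to 74.1 CPM (median 61.4) in AB, without overlap (1.21, SE 0.18, edgeR adjusted p 0.000197). The complex I gene ndufa2 had 30.5 to 96.8 CPM (median 50.7) in TL at 3.25 hpf, against 10.3 to 29.1 CPM (median 20.4) in AB (1.39, SE 0.28, adjusted p 0.00293). Another ATP synthase gene went the other way. For atp5mea the range at 2.25 hpf was 1.90 to 110 CPM (median 6.13) in TL, against 171 to 270 CPM (median 235) in AB (-3.44, SE 0.78, adjusted p 0.0062). It was the largest fall at 4.25 hpf too, with a median of 6.69 CPM in TL and 235 CPM in AB (-3.60). The largest rises at the remaining stages were that of the complex I gene ndufa6 at 2.25 hpf, with medians of 10.8 CPM in TL and 4.64 CPM in AB (1.21), and again that of atp5mf at 5.25 hpf, with 108 CPM in TL and 49.8 CPM in AB (1.07).

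Over the 3 h, 6 of 80 nuclear genes were called higher and 29 lower at 5.25 hpf, which is 7.5% and 36.2% of the list beside 26.2% and 25.9% of all genes. In either direction the list's share was 43.8%, below the 52.1% of all genes, and the list's median log2 fold change was -0.09, beside 0.56 for the mitochondrial members. By complex, 3 of 35 tested complex I genes were higher and 15 lower, and of 20 tested complex V genes none was higher and 8 were lower. Of 15 tested complex IV genes 3 were higher and 4 lower. Of 9 tested complex III genes none was higher and 1 was lower. The highest rise was that of ndufa4, with a median of 545 CPM at 5.25 hpf and 307 CPM at 2.25 hpf (0.75, SE 0.10, edgeR adjusted p 7.56e-09). It is placed in complex I by its name, and its product is also described as a part of complex IV. The largest fall was that of the complex I gene ndufb5, with medians of 64.6 CPM at 5.25 hpf and 163 CPM at 2.25 hpf (-1.24, SE 0.16, adjusted p 2.76e-09). The next largest rise was that of cox7a2l, with medians of 102 CPM at 5.25 hpf and 67.4 CPM at 2.25 hpf (0.71), and the next largest fall that of the complex I gene ndufs4, with 8.86 CPM at 5.25 hpf and 22.3 CPM at 2.25 hpf (-1.23). The difference between the lists was not tested.

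Of the 28 IDs for proteins that copy, transcribe and process the mitochondrial genome, all were tested. The numbers called higher and lower in TL were 3 and 5, 4 and 5, 4 and 3, and 0 and 3 by stage. In either direction these were 28.6%, 32.1%, 25% and 10.7% of the list, beside 18%, 15.7%, 20.3% and 10.7% of all genes. At 3.25 hpf mterf4, whose mammalian product acts in mitochondrial ribosome assembly, had 7.51 to 24.5 CPM (median 13.9) in TL, against 1.11 to 4.26 CPM (median 3.16) in AB, without overlap (2.28, SE 0.34, edgeR adjusted p 0.000303). At the same stage tfb1m, whose mammalian product methylates mitochondrial ribosomal RNA, had 1.66 to 8.89 CPM (median 2.53) in TL, against 14.9 to 24.9 CPM (median 18.5) in AB (-2.22, SE 0.39, adjusted p 0.00111). The gene mterf4 was also the largest rise at 2.25 hpf (2.32) and 4.25 hpf (1.92). The largest falls there were those of prorp, the gene of a protein subunit of mitochondrial ribonuclease P, at -1.50 and -1.57, and at 5.25 hpf that of the transcription factor gene tfb2m at -1.34. Over the 3 h 2 were called higher and 14 lower, in all 57.1% of the list beside 52.1% of all genes. By direction these were 7.14% higher and 50% lower, beside 26.2% and 25.9% of all genes. The mitochondrial transcription elongation factor gene tefm had a median of 7.35 CPM at 5.25 hpf and 39.8 CPM at 2.25 hpf (-2.34, SE 0.16, adjusted p 3.66e-17), and mterf4 rose, with medians of 19.5 CPM at 5.25 hpf and 6.46 CPM at 2.25 hpf (1.72, SE 0.25, adjusted p 6.73e-08). The other named genes of the span were fastkd1, with medians of 6.10 CPM at 5.25 hpf and 18.7 CPM at 2.25 hpf (-1.68), and the single-strand DNA-binding protein gene ssbp1, with 59.9 CPM at 5.25 hpf and 52.3 CPM at 2.25 hpf (0.25).

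Of 10965 other genes whose mean count reached 20, the 5 whose log2 CPM followed the mean of the 10 members most closely over the 48 embryos were ENSDARG00000080630 (Pearson r 0.81), ENSDARG00000080128 (0.79), ENSDARG00000082789 (0.78), RPS24 (0.77), the gene of a protein of the small cytosolic ribosomal subunit, and ENSDARG00000081938 (0.76). The IDs have no symbol in the gene table used. Among the other mitochondrial protein genes, mt-nd4l had an r of 0.68, mt-atp8 of 0.61 and mt-nd6 of 0.55. The embryos share stages, strains and library scaling, so these values are descriptions.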

How the data were processed

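The authors deposited raw counts per Ensembl gene ID, with 1 table of 12 embryos for each stage and the same 32520 IDs in each. The submitters' processing notes name bcl2fastq 2.19.0.316, STAR 2.7.1a and edgeR 3.26.8. The genome build, annotation, counting program, use of strand and treatment of molecular identifiers are not given in the sources used here, so counts may include several reads of 1 molecule.

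ENSDARG00000080337 was removed before totals, filterByExpr and TMM normalization. CPM are counts scaled to TMM library sizes of all 48 embryos. Strains were compared on the 12 embryos of a stage, stages and the interaction in 1 fit of all 48, and biological replicates on the 12 embryos of a stage with strain as covariate, each by a quasi-likelihood fit in edgeR 4.0.16 under R 4.3.3 (limma 3.58.1 loaded) with Benjamini-Hochberg adjustment over all genes tested. Genes with an adjusted p under 0.05 were called. The fit of a strain comparison at a single stage was tested on simulated counts, and the outcome of that test is not given here. The 10 members and the gene lists were chosen with earlier results of these data known. Named list genes were the called gene with the largest rise and fall per stage, and the 2 with the largest over the span, with a mean of at least 5 counts. Symbols came from a table that names 29201 of the IDs. The gene order is that of RefSeq assembly GRCz12tu, whose coordinates and lengths were not used.

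The strains are paired by biological replicate because the labels link every replicate to sequencing runs of its own. The strain and stage fits reported first held no replicate term, and the block was an alternative. Within 1 replicate, deviations of TL and AB embryos from their strain means correlated with r of 0.259, 0.225, 0.165 and 0.461 by stage. No embryos were near-identical: over 120 pairs within groups, chi-square divided by its degrees of freedom was 5.18 to 48.4. Alternatives were DESeq2 1.42.0, other library totals, other count filters, a replicate block, single strains, sums over the 3 embryos of a replicate, and leaving out each replicate.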

Additional observations from a re-analysis of the deposited data

Results flagged for a closer look

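In 3 of the 80 groups of 6 embryos (10 members, 8 groups each), 1 embryo stood far from the other 5 by Dixon's criterion, which sets the gap to the nearest embryo against the range. Chance flags about 1 in 20 groups. For mt-co1 at 4.25 hpf, AB embryo 5 had 10181 CPM and the other AB embryos had 4440 to 6449 CPM. For mt-co1 at 5.25 hpf, AB embryo 4 had 9749 CPM, and the others had 3528 to 5515 CPM. The same embryo had 6911 CPM of mt-cyb, and the others had 1951 to 3232 CPM. Over all genes, alternative fits of the strains at 5.25 hpf called 69 to 2626 (1270 in the fit reported). Without AB embryo 4, 3 of 10 members were called between TL and AB at 5.25 hpf, mt-nd5 with a log2 fold change of 1.16 (edgeR adjusted p 0.0383) among them. This embryo was picked for its high mt-co1 and mt-cyb levels, so leaving it out by itself lowers the AB means of these genes. The number of all genes called in that fit is not given here, so the 3 members have no background beside them. The cause was not tested.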

How the results depend on the processing

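The figures here are numbers of the 10 members called. The numbers called over all genes also changed with the fit, and their ranges are given in the next paragraph. Most member numbers here stand without the share of all genes in the same fit, so they show no excess or lack of calls among the members. With counts summed over the 3 embryos of a replicate, 0 were called between TL and AB at each stage, 2 in the average over stages (added after seeing the data), 3 over the span from 2.25 to 5.25 hpf and 0 from 3.25 to 4.25 hpf. With biological replicate as a block, which follows the pairing, 2 were called between strains at each stage from 3.25 hpf on, and it changed no other number by over 1.5 times. Leaving out a biological replicate gave 0 to 2 at 2.25 hpf, 0 to 1 at 3.25 hpf, 2 to 3 at 4.25 hpf and 0 both times at 5.25 hpf for the strains, 3 to 6 for the span and 0 to 3 from 3.25 to 4.25 hpf. Leaving out a single embryo (added after seeing the data) gave 1 between strains without AB embryo 5 at 4.25 hpf. Without AB embryo 4 at 5.25 hpf it gave 3 between strains and 5 for the span. In the strain fit without AB embryo 4, mt-co1 was called higher in TL (0.53, edgeR adjusted p 0.039). Both embryos were picked for a high mt-co1 level, so leaving them out by itself raises the mt-co1 estimate, TL over AB. The mt-co1 call is therefore no separate support for a strain difference. One fit of all 48 embryos gave 0 at 2.25 hpf and 2 at 3.25 and 5.25 hpf. No count filter gave 2 at each stage from 3.25 hpf on, DESeq2 2 at 4.25 and 5.25 hpf, and library totals without TMM 2 at 4.25 hpf. From 3.25 to 4.25 hpf each strain alone gave 0. Between biological replicates at 3.25 hpf, DESeq2 and no filter gave 5, ENSDARG00000080337 kept in totals 1, TL alone 1, AB alone 0 and no TMM 0. Over all genes, DESeq2 called 592 of 11897 in that comparison. At 2.25 hpf TL alone gave 0. At 4.25 hpf TL alone and no filter gave 2. At 5.25 hpf each strain alone gave 0 and no filter 3. The cause of these changes was not tested, and sums, single strains and left-out replicates have fewer samples.

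Over all genes, strain calls ranged from 811 to 2674 at 2.25 hpf (2121 in the fit reported), 847 to 2412 at 3.25 hpf (1869), 482 to 2881 at 4.25 hpf (2446) and 69 to 2626 at 5.25 hpf (1270), and interaction calls from 1 to 102 (51). Step calls ranged from 55 to 363 (267), 705 to 2708 (2392) and 3500 to 6448 (6166), and replicate calls from 48 to 1637 (981), 0 to 592 (137), 269 to 1403 (790) and 33 to 2165 (1575) by stage. Span calls ranged from 5198 to 8727 (7518), and calls in the average over stages from 5121 to 8103 (6811).

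Of 42 pairs of member and comparison with an unadjusted p under 0.05, 1 changed sign in an alternative, mt-nd5 between strains at 4.25 hpf without replicate 2 (-0.11, against 1.39 without replicate 1). Of the other 98 pairs 61 did, and their estimates give no stable direction. Depth was no limit for the members, the lowest count of which was 978, but the 2 replicates per group are few.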
